A study of Mus musculus with 20 samples.

Results

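Calcium enters lung cells through channels that open on stretch, on receptor signals, on emptying of the internal calcium stores or on a change of membrane voltage. The set described here holds 9 such mouse genes, chosen by name as the calcium entry and mechanosensing channels: Trpv4, Trpc1, Trpc6, Piezo1, Piezo2, Cacna1c, Cacna1i, Stim1 and Orai1. They are 9 of the 30691 gene lines with a name in the deposited table, and all 9 were among the 21658 genes past the filter on low values (a signal of at least 10 in at least 4 libraries). No measured value entered the choice by name, but results of these data were known when it was made.

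Whole lungs were profiled by RNA sequencing in mice with a deletion of the gene for vasoactive intestinal peptide (VIPKO) and in wild-type C57BL/6 mice (WT). Each genotype was kept for 4 weeks in 10% oxygen (hypoxia) or in 21% oxygen (normoxia). There were 5 VIPKO hypoxia, 4 VIPKO normoxia, 5 WT hypoxia and 6 WT normoxia libraries. VIPKO stands for a knockout in the titles and the design text but for a knockdown under genotype, and the labels give neither the age of the mice nor a background strain for VIPKO. Nothing in the labels says that each library is a separate animal, so p-values measure the spread between these libraries. All libraries carry the same batch label.

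In muscle and endothelium a rise of calcium inside the cell drives contraction, nitric oxide release and gene responses. In pulmonary arteries, store-operated, receptor-operated and voltage-gated calcium entry contribute to the tone of the smooth muscle, and mechanosensitive channels of the endothelium respond to flow and stretch. Vasoactive intestinal peptide is a neuropeptide that acts through receptors coupled to cyclic AMP and relaxes vascular and airway smooth muscle. In whole lung RNA, fewer cells of a type and less RNA per cell cannot be told apart.

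The 250 bases before the annotated start are shown for the members that passed the test in hypoxia in both genotypes (Trpv4 and Cacna1i) and for those that passed it between genotypes in normoxia (Piezo1 and Orai1). They are RefSeq windows of GRCm38.p6, read 5′ to 3′ on the strand of the gene, at chr5:114658422-114658671 (minus) for Trpv4, chr15:80286988-80287237 (plus) for Cacna1i, chr8:122551330-122551579 (minus) for Piezo1 and chr5:123014824-123015073 (plus) for Orai1. Capitals mark the letters ACGTG or GCGTG, cores of hypoxia response elements, and TGACG, the cyclic AMP response element half-site, on either strand.
Trpv4: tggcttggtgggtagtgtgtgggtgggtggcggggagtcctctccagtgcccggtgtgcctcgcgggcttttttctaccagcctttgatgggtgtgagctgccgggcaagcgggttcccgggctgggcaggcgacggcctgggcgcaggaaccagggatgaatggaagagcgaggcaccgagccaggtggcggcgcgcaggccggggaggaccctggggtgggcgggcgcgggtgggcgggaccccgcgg
Cacna1i: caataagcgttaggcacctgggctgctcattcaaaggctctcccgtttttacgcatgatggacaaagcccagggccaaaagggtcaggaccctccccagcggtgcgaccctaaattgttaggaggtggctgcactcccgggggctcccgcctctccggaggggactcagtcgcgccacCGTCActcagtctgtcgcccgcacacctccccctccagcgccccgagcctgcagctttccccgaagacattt
Piezo1: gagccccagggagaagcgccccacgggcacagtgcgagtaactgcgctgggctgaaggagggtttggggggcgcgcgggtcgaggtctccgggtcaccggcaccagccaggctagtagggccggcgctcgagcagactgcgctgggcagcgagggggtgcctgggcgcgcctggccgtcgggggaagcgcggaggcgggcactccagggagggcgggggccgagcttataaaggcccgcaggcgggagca
Orai1: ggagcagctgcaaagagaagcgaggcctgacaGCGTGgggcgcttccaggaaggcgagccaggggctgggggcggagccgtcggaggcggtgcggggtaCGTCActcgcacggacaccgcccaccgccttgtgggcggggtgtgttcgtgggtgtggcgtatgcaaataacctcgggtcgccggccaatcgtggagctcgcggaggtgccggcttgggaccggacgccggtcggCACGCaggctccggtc

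The Trpv4 and Piezo1 windows held none of these 3 motifs, nor the NFAT core GGAAA or the letters GATA. Orai1 held GCGTG at 218 and 16 bases before its start and TGACG at 151, and Cacna1i held TGACG at 72 and GGAAA at 17. The motifs ACGTG and TGACG can overlap. Among all 32851 windows of the same length, 16.6% held ACGTG, 28.2% GCGTG, 17.8% TGACG, 55.6% GGAAA and 53.6% GATA. The windows of Trpv4, Piezo1 and Orai1 were rich in CpG, with 22, 26 and 30 CpG dinucleotides against a median of 6 over all windows, and Cacna1i had 16. RefSeq windows were matched for 8 of the 9 members. A match of letters is a description and not a site.

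The genes lie on 7 chromosomes of the GRCm38 (mm10) assembly. Trpv4 spans 114622152 to 114658421 and Orai1 spans 123015074 to 123030456, both on chromosome 5. Trpc6 spans 8544142 to 8680741 and Trpc1 spans 95705082 to 95750375 on chromosome 9. Piezo1 lies on chromosome 8 at 122481698 to 122551329 and Piezo2 on chromosome 18 at 63010213 to 63387183. Cacna1c lies on chromosome 6 at 118587240 to 119196418, Cacna1i on chromosome 15 at 80287238 to 80398279 and Stim1 on chromosome 7 at 102267806 to 102437319. Trpc6, Cacna1i, Stim1 and Orai1 are annotated on the plus strand and the other 5 on the minus strand.

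Values are the submitters' normalized counts, called signal here. The depth estimated from the smallest step of the values was 4.96 to 56.7 M reads, the shallowest library being WT hypoxia 4. Of the members, Cacna1i rested on the fewest reads, about 44 in its lowest library. Several libraries stood apart. VIPKO hypoxia 3 held a summed signal of 4100 for 4 thymus genes (162 to 381 in the other 19), and WT hypoxia 5 held 32638 for 6 skeletal muscle genes (23.7 to 975 in the others). On the first principal component VIPKO normoxia 2, VIPKO normoxia 3 and VIPKO hypoxia 2 lay at one end, with scores of 59.2 to 75.4 and the next library at 33.6, and VIPKO hypoxia 3, WT hypoxia 3 and WT hypoxia 5 lay about as far out at the other, with scores of -76.2, -58.9 and -58.5. Fits without the 3 libraries at the positive end left out 2 of the 4 VIPKO normoxia libraries, and no fit left out the 3 at the negative end together. The Vip signal was low in both genotypes and did not check the labels: it was 1.08 to 5.54 in 8 of 9 VIPKO libraries and 0 to 12.7 in 10 of 11 WT libraries, while the library labelled VIPKO hypoxia 4 had 106 and WT normoxia 5 had 93.0. At 0, the floor of 3 reads allows up to 11.7 in WT hypoxia 4 and 4.72 in WT normoxia 6, for counting error only. Directions between genotypes therefore rest on the labels. The tissue label held: 5 type 2 alveolar markers, surfactant genes among them, summed to 115800 to 366948 in every library, with none at 0. Neuron and neuroendocrine markers summed to 79.0 to 168 in every library, with Snap25, Calca and Chga at 0 in some libraries of each group.

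Under hypoxia Trpv4 was higher and Cacna1i lower in both genotypes, and 5 of the 9 genes passed the test in neither genotype. Log2 fold changes come from limma on log2(signal + 1), and a gene is called where the p-value adjusted by the Benjamini-Hochberg method over all 21658 genes is under 0.05. In VIPKO lungs 2 of 9 members passed, Trpv4 higher and Cacna1i lower, where 0.997% of all genes tested did (0.614% higher and 0.383% lower). In WT lungs 4 of 9 passed, Trpv4 higher and Cacna1i, Cacna1c and Piezo2 lower, where 14.7% of all genes did (7.88% higher and 6.77% lower). The 9 genes had a median log2 fold change under hypoxia of 0.03 in VIPKO and of -0.42 in WT, beside -0.01 over all genes in each genotype.

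Between genotypes in normoxia 2 of 9 members passed, Piezo1 and Orai1, both lower in VIPKO, where 8.65% of all genes did (4.69% higher and 3.96% lower). All 9 fitted differences were below 0, with a median of -0.32 beside 0.01 over all genes. The 9 are not independent results, since Piezo2, Cacna1c, Trpc1 and Trpc6 varied together over the libraries (Pearson r of 0.63 to 0.89). In hypoxia 0 of 9 passed between genotypes, where 1.62% of all genes did, and 3 (Cacna1i, Stim1 and Trpc6) had an unadjusted limma p under 0.05, where 18.8% of all genes did. For the interaction, the difference between the hypoxia responses of VIPKO and WT, 0 of 9 passed, where 0.282% of all genes did, and 3 (Trpv4, Piezo1 and Orai1) had an unadjusted limma p under 0.05, where 14.2% of all genes did. With library weights, 6 members passed between genotypes in normoxia, 7 for hypoxia in WT, 1 between genotypes in hypoxia and 5 for the interaction. Over all 21658 genes the same weights gave 5448, 6590, 1926 and 2228 calls, in that order. The comparison of genotypes in normoxia and that of hypoxia in WT share the 6 WT normoxia libraries. Without the 3 libraries at the positive end of the first component, 0 members passed between genotypes in normoxia and 1 passed for hypoxia in VIPKO. In that fit 0 and 45 of all 21658 genes passed in these comparisons. With a correction for transcript length and GC content, 0 members passed between genotypes in normoxia, and 232 of the 20982 genes with a known length did. Before it, Spearman rho between transcript length and a gene's deviation from its mean over the libraries was -0.168 to -0.118 in VIPKO normoxia. In WT normoxia it was -0.0328 to 0.299. The median over all genes was not matched for length.

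**Figure D1:**
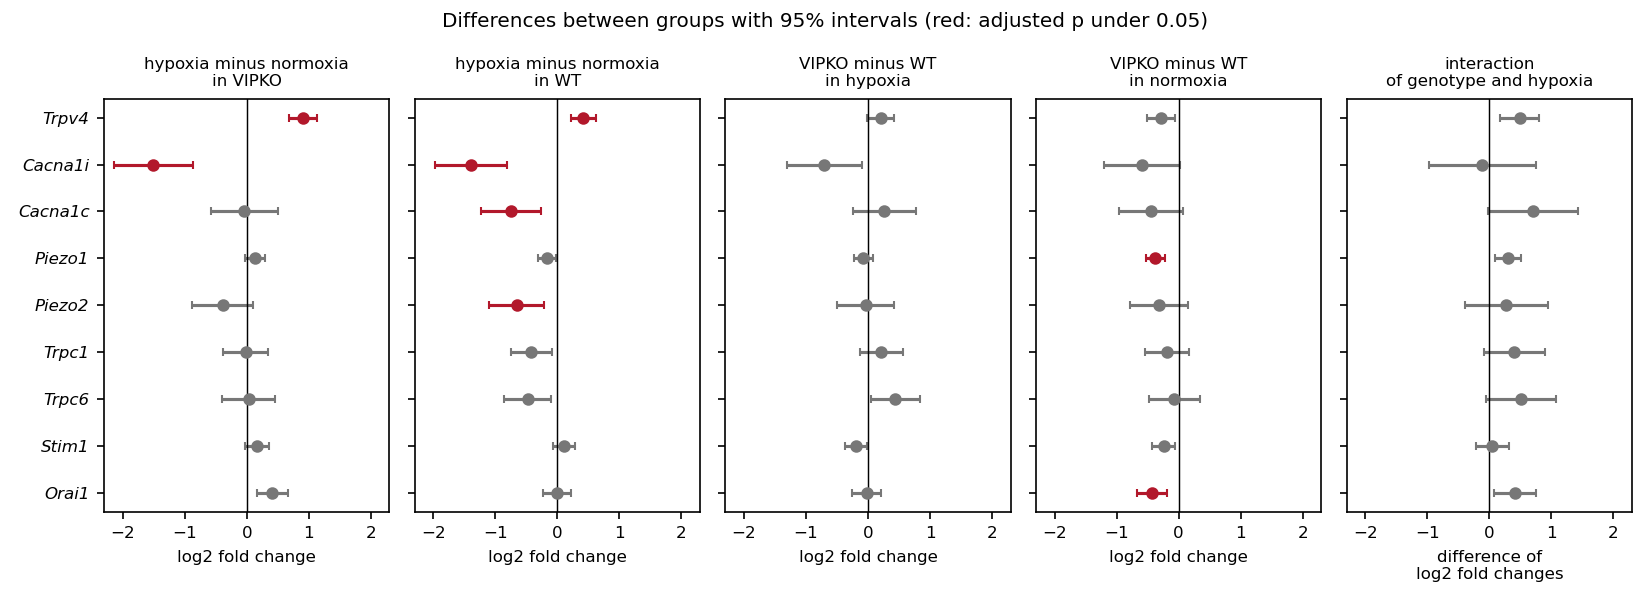
Log2 fold change of each gene in the 4 comparisons and the interaction, with limma 95% intervals as bars, and red where the adjusted p is under 0.05. Trpv4 lies at 0.91 and 0.42 and Cacna1i at -1.51 and -1.39 for hypoxia in VIPKO and WT, and all 9 genes lie left of 0 for VIPKO minus WT in normoxia.

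Levels were compared between genes only per kilobase of the longest annotated transcript. Piezo1 was the highest in all 4 groups, at 567 ± 60.3 signal per kilobase in VIPKO hypoxia, 515 ± 32.4 in VIPKO normoxia, 595 ± 19.9 in WT hypoxia and 668 ± 29.0 in WT normoxia (SD, n = 5, 4, 5 and 6). Stim1 was the next in each group, at 429 ± 64.5, 381 ± 12.6, 487 ± 43.4 and 451 ± 22.7 signal per kilobase in the same groups. In WT normoxia the order went on with Orai1 at 326 ± 36.2, Piezo2 at 280 ± 37.0, Trpc6 at 271 ± 9.48 and Cacna1c at 233 ± 24.6 signal per kilobase. The ranges over libraries of Orai1 and Piezo2, of Piezo2 and Trpc6 and of Trpc6 and Cacna1c overlapped there. The genes were measured in the same libraries, and their order within each library was not compared.

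Trpc1 (95.4 ± 6.03), Trpv4 (76.6 ± 5.24) and Cacna1i (29.1 ± 10.3) were the lowest in WT normoxia, in signal per kilobase, and their ranges did not overlap. In VIPKO hypoxia Trpv4 stood above Trpc1, at 119 ± 12.8 against 84.4 ± 17.02 signal per kilobase, and Cacna1i was at 6.62 ± 2.34. In WT hypoxia Trpv4 also stood above Trpc1 on average, at 103 ± 8.83 against 73.1 ± 18.99. In VIPKO hypoxia the ranges over libraries did not overlap, at 104 to 134 for Trpv4 and 55.6 to 96.0 for Trpc1. In WT hypoxia they overlapped, at 87.9 to 110 and 50.5 to 103, and the order within each library was not compared there.

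**Figure D2:**
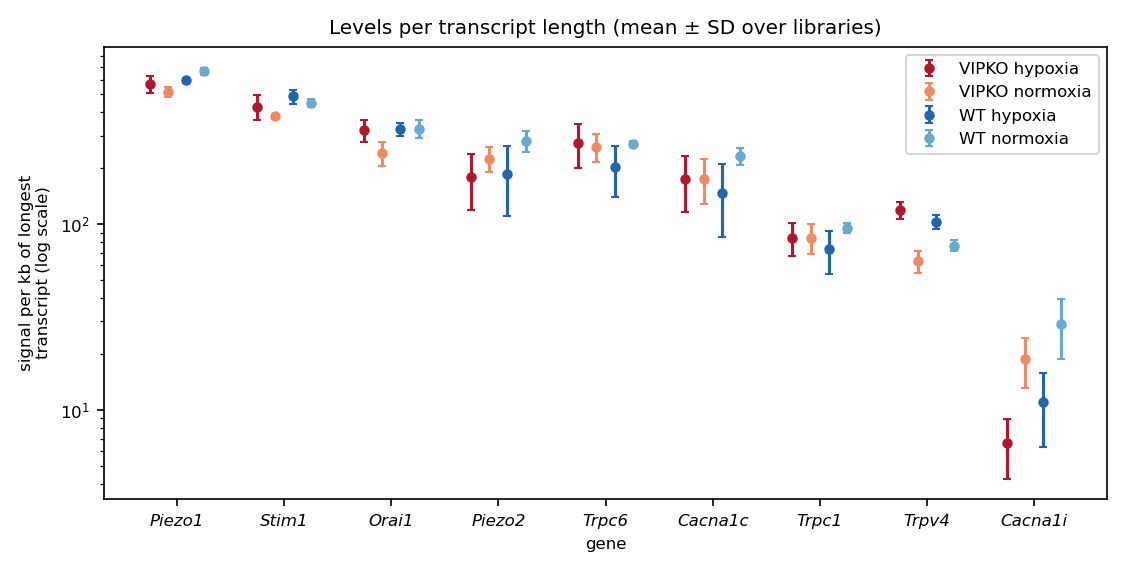
Mean signal per kilobase of the longest transcript for each gene on a log axis, with bars for the SD over libraries and 1 colour for each group. Piezo1 is the highest and Cacna1i the lowest in every group.

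Trpv4 encodes a cation channel of endothelium, epithelium and smooth muscle that opens on cell swelling, warmth and lipid messengers. Its signal was 400.9, 433, 346, 335 and 403 in VIPKO hypoxia libraries 1 to 5, against 198, 203, 175 and 242 in VIPKO normoxia (libraries 1 to 4). The WT signal was 333, 349, 284, 338 and 356 in WT hypoxia libraries 1 to 5, against 224 to 266 with a median of 250.4 in the 6 WT normoxia libraries. Every hypoxia library lay above every normoxia library, in both genotypes. In VIPKO lungs 2 of 9 members had groups that did not overlap (5.13% of all genes), and in WT lungs Trpv4 was the only member of 9 (7.94% of all genes).

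Trpv4 rose by 0.91 ± 0.11 on the log2 scale in VIPKO hypoxia, or 1.88-fold (limma 95% interval 0.68 to 1.14, adjusted p = 0.000129). In WT hypoxia it rose by 0.42 ± 0.10, or 1.34-fold (limma 95% interval 0.21 to 0.63, adjusted p = 0.0123). Both calls held without each library in turn, with limma adjusted p of 0.000131 to 0.00116 in VIPKO and 0.00829 to 0.0316 in WT. With a correction for transcript length and GC content the WT difference was 0.32 and missed the threshold (limma adjusted p = 0.0633). The interaction was 0.49 ± 0.15 (limma 95% interval 0.18 to 0.80, adjusted p = 0.144), so the responses of the genotypes were not shown to differ, and with library weights it was 0.54 (limma adjusted p = 0.0207). VIPKO minus WT was 0.21 in hypoxia and -0.28 in normoxia (limma adjusted p = 0.291 and 0.103), and the normoxia difference passed with library weights (limma adjusted p = 0.0311).

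**Figure D3:**
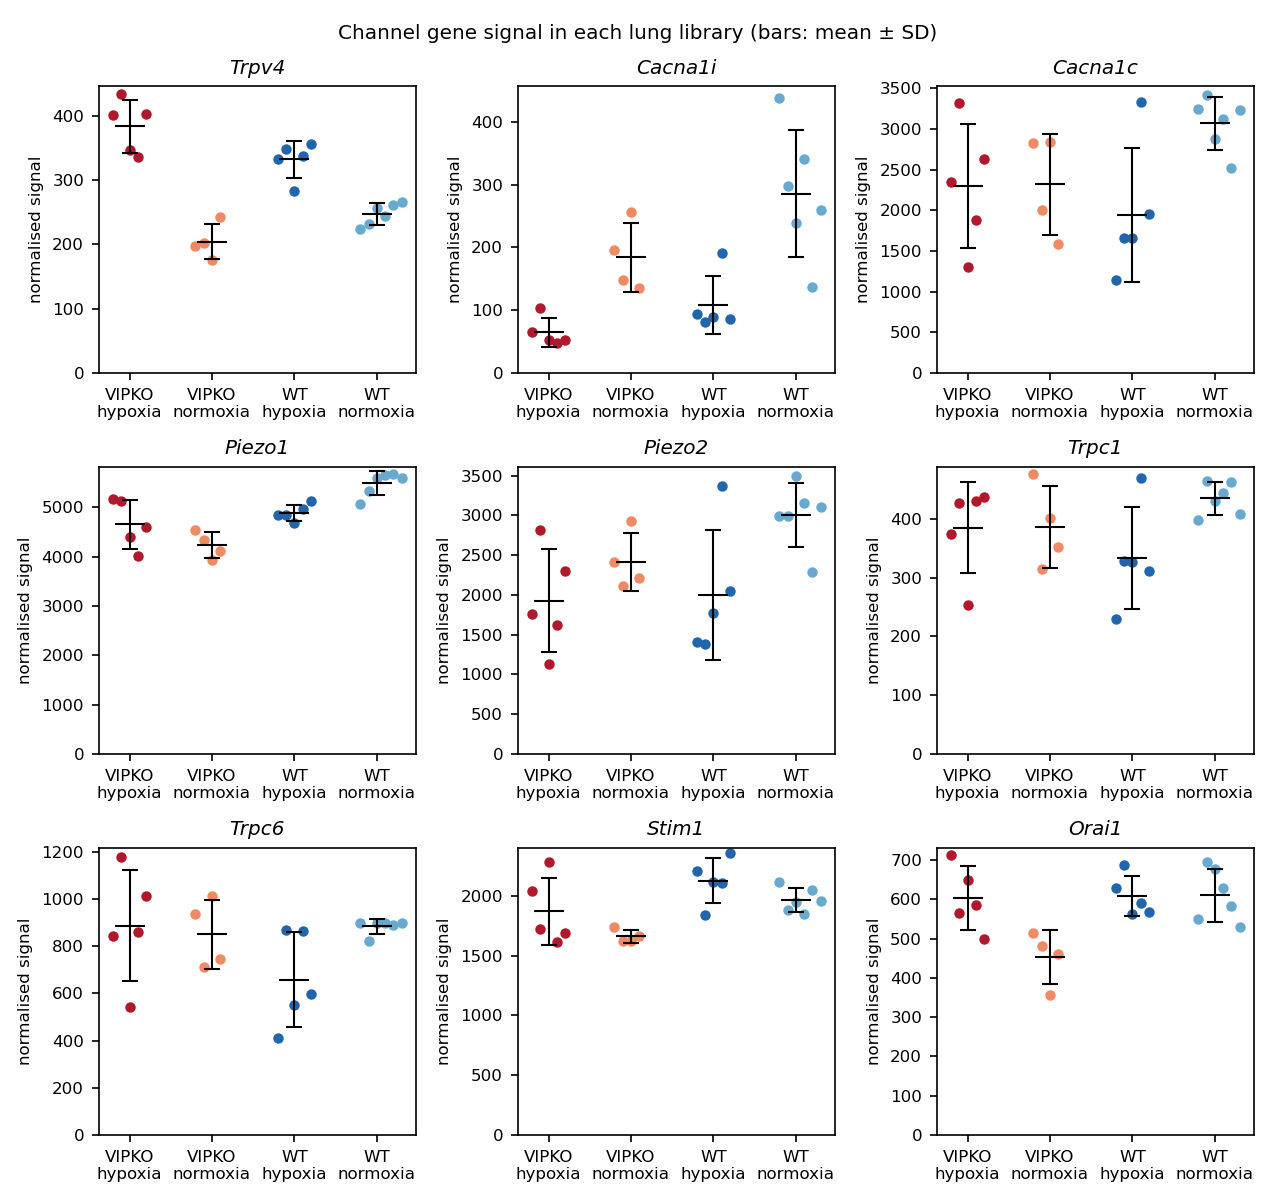
Normalised signal of each gene in each library, 1 panel a gene with its own axis from 0, with the group mean and SD as bars. Trpv4 in hypoxia lies at 284 to 433 in both genotypes together, above all normoxia libraries, which lie at 175 to 266.

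The endothelial markers differed among themselves in direction. The summed signal of 8 capillary endothelium genes ran over 36132 to 46474 in VIPKO hypoxia, 42988 to 48933 in VIPKO normoxia, 33574 to 56812 in WT hypoxia and 52073 to 65356 in WT normoxia. Under hypoxia 2 of these 8 genes fell in VIPKO (Plvap and Ednrb), and in WT 4 fell (Plvap, Ednrb, Kdr and Cdh5) and 1 rose (Gpihbp1). The median log2 change of the 8 was -0.25 in VIPKO and -0.38 in WT. Plvap was 915 to 1551 in VIPKO hypoxia, below 3101 to 4565 in VIPKO normoxia. Kdr, not called in VIPKO, was 5012 to 7060 in VIPKO hypoxia, below 7725 to 9240 in VIPKO normoxia. Gpihbp1, which carries lipoprotein lipase across capillary endothelium, averaged 1342 ± 175 in VIPKO hypoxia and 996 ± 98.8 in VIPKO normoxia, groups that did not overlap (0.42, limma adjusted p = 0.161), and 1524 ± 295 in WT hypoxia and 1173 ± 158 in WT normoxia (0.37, limma adjusted p = 0.0474). Cldn5, a tight junction claudin of endothelium, was 4405 to 5295 in VIPKO hypoxia, above 3053 to 4334 in VIPKO normoxia (0.39, limma adjusted p = 0.363), and differed by -0.30 in WT (limma adjusted p = 0.199). The part of endothelial content in the Trpv4 differences was not tested.

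Nos3, which encodes endothelial nitric oxide synthase and was listed among shear-responsive genes, had the profile most like Trpv4 over the 20 libraries (Pearson r = 0.89, and 0.61 for deviations from the group means). Nos3 averaged 770.3 ± 148 in VIPKO hypoxia and 414 ± 40.8 in VIPKO normoxia and rose by 0.88 ± 0.14 (limma adjusted p = 0.00334), while in WT it averaged 596 ± 76.1 in hypoxia and 484 ± 77.8 in normoxia and did not pass. The Nos3 call was lost without the 3 libraries at the positive end of the first component, at 0.73 (limma adjusted p = 0.167). Bmp2, a bone morphogenetic protein ligand, and Snph, which anchors mitochondria in nerve axons, followed at r = 0.89 and 0.87. These correlations describe libraries that share groups and carry no test.

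Markers of further cell types rose in WT hypoxia, where Trpv4, Cacna1i, Cacna1c and Piezo2 were called. The 5 adipocyte markers all rose, with a median log2 change of 5.02 and a summed signal of 682 to 11256 in WT hypoxia and 73.97 to 433 in WT normoxia (Adipoq and Retn were at 0 in some libraries of each group). Of 5 type 2 alveolar markers 4 rose, with sums of 217456 to 366948 in WT hypoxia and 115800 to 250765 in WT normoxia, and of 5 alveolar macrophage markers 3 rose, with sums of 9337 to 20445 in WT hypoxia and 3768 to 7407 in WT normoxia. In VIPKO hypoxia 0 genes of these 3 lists passed in limma, and 0 had an unadjusted p under 0.05. Mitochondrial ribosomal RNA was 4506 to 9415 in VIPKO hypoxia, below 12034 to 27208 in VIPKO normoxia, while it was 396 to 7058 in WT hypoxia and 97.7 to 2075 in WT normoxia. Their part in the hypoxia differences of the members was not tested.

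Trpc1 and Trpc6 encode canonical TRP channels, and Trpc6 is opened by diacylglycerol downstream of receptors that couple to phospholipase C. Trpc6 signal was 841, 1178, 542, 862 and 1014 in VIPKO hypoxia, against 935, 711, 1012 and 745 in VIPKO normoxia. It was 411.6, 870, 549, 863 and 597 in WT hypoxia, against 821 to 900 with a median of 897 in WT normoxia. WT normoxia was far narrower than the other groups, and no pair of groups was separate. Trpc1 signal was 374, 428, 254, 431 and 438 in VIPKO hypoxia and 476, 315, 401.3 and 352 in VIPKO normoxia. It was 230, 328, 326, 470 and 311 in WT hypoxia, against 398 to 464 with a median of 438 in WT normoxia.

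Neither gene passed in any comparison in the fit to all libraries with equal weight. In WT hypoxia the log2 differences were -0.48 ± 0.18 for Trpc6 and -0.42 ± 0.16 for Trpc1 (limma adjusted p = 0.0778 and 0.0764). In VIPKO hypoxia they were 0.03 and -0.02, with limma 95% intervals of -0.39 to 0.45 for Trpc6 and -0.38 to 0.35 for Trpc1. WT hypoxia 4 held the highest Trpc1 and the next to highest Trpc6 of its group, and without it both passed, at -0.59 for Trpc6 and -0.55 for Trpc1 (limma adjusted p = 0.0301 and 0.0155). Both also passed without VIPKO hypoxia 3 (limma adjusted p = 0.0383 and 0.0371), and Trpc6 without WT hypoxia 2 (limma adjusted p = 0.0405). Trpc6 between genotypes in hypoxia was 0.44, and passed at 0.61 without VIPKO hypoxia 3 (limma adjusted p = 0.215 and 0.0445). With library weights Trpc6 and Trpc1 both passed for hypoxia in WT, at -0.59 and -0.48 (limma adjusted p = 0.00736 and 0.00894), and for the interaction, at 0.75 and 0.61 (limma adjusted p = 0.0361 and 0.0426), and Trpc6 passed between genotypes in hypoxia, at 0.62 (limma adjusted p = 0.0266).

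Of the other TRP channel genes, 16 of 24 listed were tested. Of all genes, 8.65% passed between genotypes in normoxia, 1.62% between genotypes in hypoxia, 14.7% for hypoxia in WT and 0.997% for hypoxia in VIPKO. In normoxia 2 of the 16 fell in VIPKO, Pkd1 (polycystin 1, a receptor-like partner of a TRP channel, -0.46 ± 0.12, limma adjusted p = 0.0255) and Trpm4 (a calcium-activated channel for monovalent cations, -0.36 ± 0.10, limma adjusted p = 0.0278). Trpm4 averaged 809 ± 91.6 in VIPKO hypoxia and 821 ± 69.4 in VIPKO normoxia, against 1059 ± 104 in WT hypoxia and 1055 ± 107 in WT normoxia, and was also lower in VIPKO in hypoxia (-0.39 ± 0.10, limma adjusted p = 0.0441). The Pkd1 and Trpm4 calls in normoxia were lost with the correction for length and GC content, at -0.23 and -0.16 (limma adjusted p = 0.267 and 0.433), with the replicate block (limma adjusted p = 0.077 and 0.0714), and without the 3 libraries at the positive end of the first component (limma adjusted p = 0.35 and 0.266). The Trpm4 call in hypoxia was lost under 7 alternative settings, the correction for length and GC content moving it most, to -0.24 (limma adjusted p = 0.274), and in 12 of 20 fits with 1 library left out (limma adjusted p up to 0.117). In WT hypoxia Mcoln3, a channel of endosomes and lysosomes, rose by 0.91 ± 0.27 and Pkd1 fell by 0.37 on the log2 scale (limma adjusted p = 0.0298 and 0.0362). These 2 calls were lost in 6 and 8 of 20 fits with 1 library left out (limma adjusted p up to 0.0759 and 0.104) and with the replicate block (limma adjusted p = 0.0889 and 0.0633). In VIPKO hypoxia 0 of the 16 passed in limma, with 2 at an unadjusted p under 0.05. The medians of the 16 log2 differences were 0.01 for hypoxia in VIPKO, -0.12 for hypoxia in WT, 0.03 between genotypes in hypoxia and 0.08 in normoxia.

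Cacna1i encodes a pore subunit of the low-voltage-activated, T-type calcium channels, best known from neurons. Its signal was 65.7, 104, 52.9, 48.2 and 52.7 in VIPKO hypoxia, against 196, 148, 256 and 135 in VIPKO normoxia. In WT hypoxia it was 93.4, 81.2, 88.5, 190.5 and 85.7, against 137 to 437 with a median of 278 in WT normoxia. The VIPKO groups did not overlap, and in WT 1 hypoxia library, WT hypoxia 4, lay within the normoxia range. Cacna1i fell by 1.51 ± 0.31 on the log2 scale in VIPKO hypoxia, 2.84-fold lower (limma 95% interval -2.15 to -0.87, adjusted p = 0.0185). It fell by 1.39 ± 0.28 in WT hypoxia, 2.62-fold lower (limma 95% interval -1.97 to -0.81, adjusted p = 0.00554).

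The WT call for Cacna1i held without each library in turn (limma adjusted p of 0.00138 to 0.018). The VIPKO call was lost without VIPKO hypoxia 4, without VIPKO normoxia 3 and without the 3 libraries at the positive end of the first component (limma adjusted p = 0.0551, 0.105 and 0.13), with log2 differences that stayed between -1.69 and -1.33 over the single libraries left out. Between genotypes Cacna1i was -0.71 ± 0.29 in hypoxia and -0.59 ± 0.30 in normoxia (limma adjusted p = 0.191 and 0.217), the normoxia difference passing with library weights at -0.80 (limma adjusted p = 0.021), and the interaction was -0.12 (limma 95% interval -0.98 to 0.75).

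Siglecg, an inhibitory lectin of B cells, and Bcl11a, a transcription factor of lymphoid cells, were among the genes most like Cacna1i over the 20 libraries, with Pearson r of 0.98 and 0.97, and 0.91 and 0.93 for deviations from the group means. Of 4 B cell markers (Ms4a1, Cd79a, Cd79b and Pax5), 3 fell in hypoxia in each genotype, and the median log2 change of the 4 was -1.21 in VIPKO and -0.82 in WT. Their summed signal was 563 to 997 in VIPKO hypoxia, 1529 to 2434 in VIPKO normoxia, 803 to 1563 in WT hypoxia and 1334 to 3557 in WT normoxia, with none of the 4 at 0 in any library. Per 1000 units of this sum, Cacna1i was 82.5 ± 26.3 in VIPKO hypoxia, 94.9 ± 11.4 in VIPKO normoxia, 91.9 ± 21.6 in WT hypoxia and 130.4 ± 22.4 in WT normoxia (SD). Divided in this way, the range was 58.0 to 117 in VIPKO hypoxia and 78.6 to 105 in VIPKO normoxia. In WT it was 68.5 to 122 in hypoxia and 103 to 164 in normoxia. Of the WT hypoxia libraries only WT hypoxia 4, at 122, lay within the WT normoxia range, as it did before division. The part of B cells in the fall of Cacna1i was not tested.

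**Figure D4:**
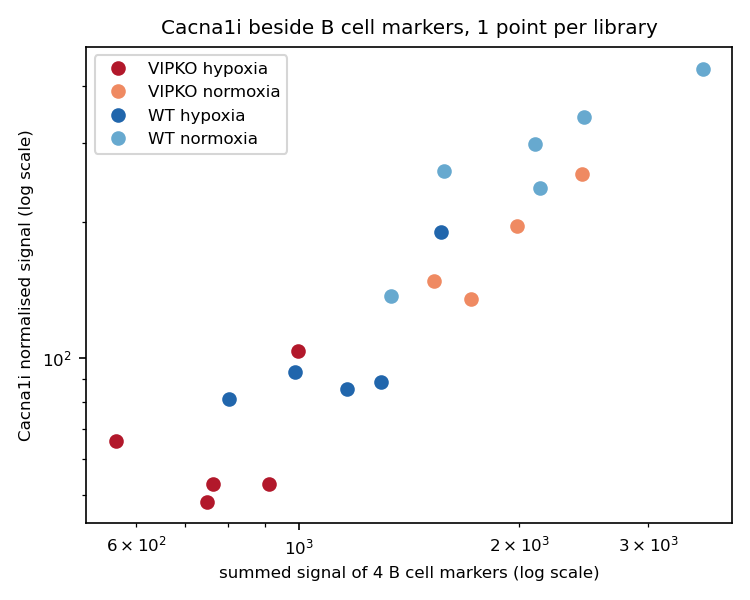
Cacna1i signal against the summed signal of 4 B cell markers, both on log axes, 1 point a library coloured by group. The 4 lowest Cacna1i values, 48.2 to 65.7, lie in VIPKO hypoxia, where the sum is 563 to 997, and the highest of both lies in WT normoxia, at 3557 for the sum and 437 for Cacna1i.

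Cacna1c encodes the pore subunit of the L-type calcium channel CaV1.2, through which smooth muscle and heart cells take up calcium on depolarization. Its signal was 2354, 3317, 1309, 1879 and 2629 in VIPKO hypoxia, against 2833, 2006, 2846 and 1593 in VIPKO normoxia. In WT hypoxia it was 1141, 1658, 1663, 3327 and 1951, against 2518 to 3416 with a median of 3182 in WT normoxia. In WT 4 of 5 hypoxia libraries lay below all normoxia libraries and WT hypoxia 4 lay among them, while the VIPKO groups overlapped throughout. Cacna1c fell by 0.74 ± 0.23 on the log2 scale in WT hypoxia, 1.67-fold lower (limma 95% interval -1.23 to -0.26, adjusted p = 0.0384). The call was lost without each of 9 of the 20 libraries, with a limma adjusted p up to 0.111, and without WT hypoxia 4 the difference was -0.96 (limma adjusted p = 0.00564).

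In VIPKO hypoxia Cacna1c differed by -0.04 (limma 95% interval -0.58 to 0.50, adjusted p = 0.966). The interaction was 0.70 ± 0.35 (limma 95% interval -0.02 to 1.42, adjusted p = 0.367), so the response of Cacna1c was not shown to differ between genotypes. With library weights the interaction was 1.00 (limma adjusted p = 0.0229). Between genotypes Cacna1c was 0.26 in hypoxia and -0.44 in normoxia (limma adjusted p = 0.596 and 0.277), and with library weights the normoxia difference passed at -0.48 (limma adjusted p = 0.0473).

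Of the 15 tested among 16 other voltage-gated calcium channel genes, 2 rose in WT hypoxia and 0 passed in the other comparisons (in limma, with 2, 4 and 5 at an unadjusted p under 0.05 for hypoxia in VIPKO and for the genotypes in hypoxia and normoxia). Of all genes tested, 14.7% passed in WT hypoxia, and 7.88% passed as higher. Cacna1h, another T-type pore subunit, averaged 107 ± 51.4 in WT hypoxia and 43.3 ± 14.2 in WT normoxia (1.21 ± 0.29, limma adjusted p = 0.0141), while Cacna1i fell. With the replicate block the Cacna1h call missed the threshold (limma adjusted p = 0.0523). Cacna1h averaged 56.8 ± 5.97 in VIPKO hypoxia and 62.03 ± 28.6 in VIPKO normoxia. Cacna1s, the L-type pore of skeletal muscle, rose by 2.11 ± 0.53 in WT hypoxia (limma adjusted p = 0.0161). Its highest value, 249, was in WT hypoxia 5, the library with skeletal muscle genes, and its lowest change on leaving out 1 library was 1.40.

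Piezo1 and Piezo2 encode large channels that open on membrane stretch, Piezo1 in endothelium and red cells among others and Piezo2 best known from sensory neurons. Piezo1 signal was 4548, 4334, 3931 and 4124 in VIPKO normoxia, against 5077 to 5684 with a median of 5596 in WT normoxia. It was 5170.4, 5137, 4396, 4010.1 and 4599 in VIPKO hypoxia, against 4836, 4839, 4688, 4969 and 5124 in WT hypoxia. In normoxia all VIPKO libraries lay below all WT libraries, and in hypoxia the genotypes overlapped. Between genotypes in normoxia 3 of 9 members had groups that did not overlap, Piezo1, Orai1 and Stim1, where 9.87% of all genes did, and in hypoxia 0 of 9 did, where 3.76% did.

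Piezo1 was lower in VIPKO in normoxia by a log2 difference of -0.38 ± 0.07, or 1.30-fold (limma 95% interval -0.53 to -0.22, adjusted p = 0.00621). The call held without each library in turn (limma adjusted p of 0.00433 to 0.0314). It was lost with the correction for length and GC content, at -0.11 (limma adjusted p = 0.54), and without the 3 libraries at the positive end of the first component, at -0.34 (limma adjusted p = 0.159), a fit in which 0 of all genes passed between genotypes in normoxia. In hypoxia the genotypes differed by -0.08 (limma 95% interval -0.22 to 0.07, adjusted p = 0.609). Hypoxia minus normoxia was 0.13 in VIPKO and -0.17 in WT (limma adjusted p = 0.47 and 0.101), the WT difference passing with library weights and with the length and GC correction (-0.18 and -0.25, limma adjusted p = 0.0465 and 0.0414), and the interaction was 0.30 ± 0.10 (limma 95% interval 0.09 to 0.52, adjusted p = 0.188). With library weights that interaction was 0.33 (limma adjusted p = 0.0358).

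Other measures differed between the same groups. Capillary endothelium sums were 42988 to 48933 in VIPKO normoxia, below 52073 to 65356 in WT normoxia, and 2 of 8 of these genes fell, Cldn5 by 0.81 and Plvap by 0.71 on the log2 scale (limma adjusted p = 0.00902 and 0.0236). Mitochondrial ribosomal RNA averaged 18884 ± 6655 in VIPKO normoxia and 863 ± 673 in WT normoxia (SD, n = 4 and 6). In VIPKO normoxia 3 of 5 alveolar macrophage, 2 of 5 adipocyte and 2 of 5 airway markers and 1 of 5 each of type 2 alveolar and fibroblast markers were higher. The alveolar macrophage sum was 76429 in VIPKO normoxia 2 and 7279 to 13914 in the other libraries of that group, beside 3768 to 7407 in WT normoxia. The part of these measures in the Piezo1 difference was not tested. The genes most like Piezo1 over the 20 libraries were Anks1, Notch1, a receptor of arterial endothelium and many other cells, and Nod1, an intracellular sensor of bacterial wall, with Pearson r of 0.90, 0.89 and 0.89, and 0.76, 0.69 and 0.72 within groups.

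Piezo2 signal was 1760.1, 2813, 1137, 1617 and 2303 in VIPKO hypoxia, against 2414, 2107, 2932 and 2209 in VIPKO normoxia. In WT hypoxia it was 1413, 1387, 1772, 3370.2 and 2055, against 2286 to 3491 with a median of 3052 in WT normoxia. As with Cacna1c, 4 of 5 WT hypoxia libraries lay below all WT normoxia libraries and WT hypoxia 4 did not. Piezo2 fell by 0.66 ± 0.21 on the log2 scale in WT hypoxia, 1.58-fold lower (limma 95% interval -1.10 to -0.21, adjusted p = 0.0435). The call was lost without each of 11 of the 20 libraries, with a limma adjusted p up to 0.113, and without WT hypoxia 4 the difference was -0.87 (limma adjusted p = 0.0052). In VIPKO hypoxia Piezo2 differed by -0.38 ± 0.24 (limma 95% interval -0.87 to 0.11, adjusted p = 0.505), and between genotypes by -0.04 in hypoxia and -0.32 in normoxia (limma adjusted p = 0.944 and 0.408).

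Piezo2, Cacna1c, Trpc1 and Trpc6 varied together over the 20 libraries, with Pearson r of 0.63 to 0.89 between pairs, as a description over libraries that share groups and depth. Cacna1i correlated with Piezo2 at 0.80, with Cacna1c at 0.66, with Trpc1 at 0.44 and with Trpc6 at 0.33. Its r with Trpv4 was -0.73. Mylk, which encodes the myosin light chain kinase of smooth muscle and other cells, was among the 3 genes most like both Cacna1c (r = 0.94, and 0.92 within groups) and Piezo2 (r = 0.92, and 0.91 within groups). Nav1, here neuron navigator 1, and Mir100hg, a long noncoding RNA, completed the list for Cacna1c at 0.96 and 0.94, and Srgap1 and Psd3 that for Piezo2 at 0.93 and 0.92.

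The summed signal of 7 smooth muscle genes was 7943 to 15561 in VIPKO hypoxia, 5702 to 15095 in VIPKO normoxia, 2812 to 18986 in WT hypoxia and 5722 to 17810 in WT normoxia, and 0 of the 7 passed in any of these comparisons in limma (1 had an unadjusted p under 0.05 between genotypes in hypoxia and 1 for the interaction). The sum of 6 pericyte genes was 7803 to 13583, 7656 to 12045, 5861 to 18082 and 9530 to 14909 in the same groups. Of these 6, Higd1b was higher in VIPKO in hypoxia, at 305 ± 60.0 against 170.4 ± 41.5 in WT hypoxia (0.84 ± 0.17, limma adjusted p = 0.0198), and 0 passed in the other comparisons in limma, with 1 or 2 at an unadjusted p under 0.05 in each. WT hypoxia 4 had the highest smooth muscle and pericyte sums of all libraries, and WT hypoxia 1, with the lowest, had the lowest Cacna1c, Trpc1 and Trpc6. Several libraries departed from this. WT hypoxia 5 had a smooth muscle sum of 15992 and a Cacna1c of 1951. WT normoxia 1, with a smooth muscle sum of 17810, had the lowest Trpc1 of its group, at 398. WT normoxia 5, with a sum of 5722, had a Trpc1 of 463 but the lowest Cacna1c of its group, at 2518. The part of muscle content in these differences was not tested.

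**Figure D5:**
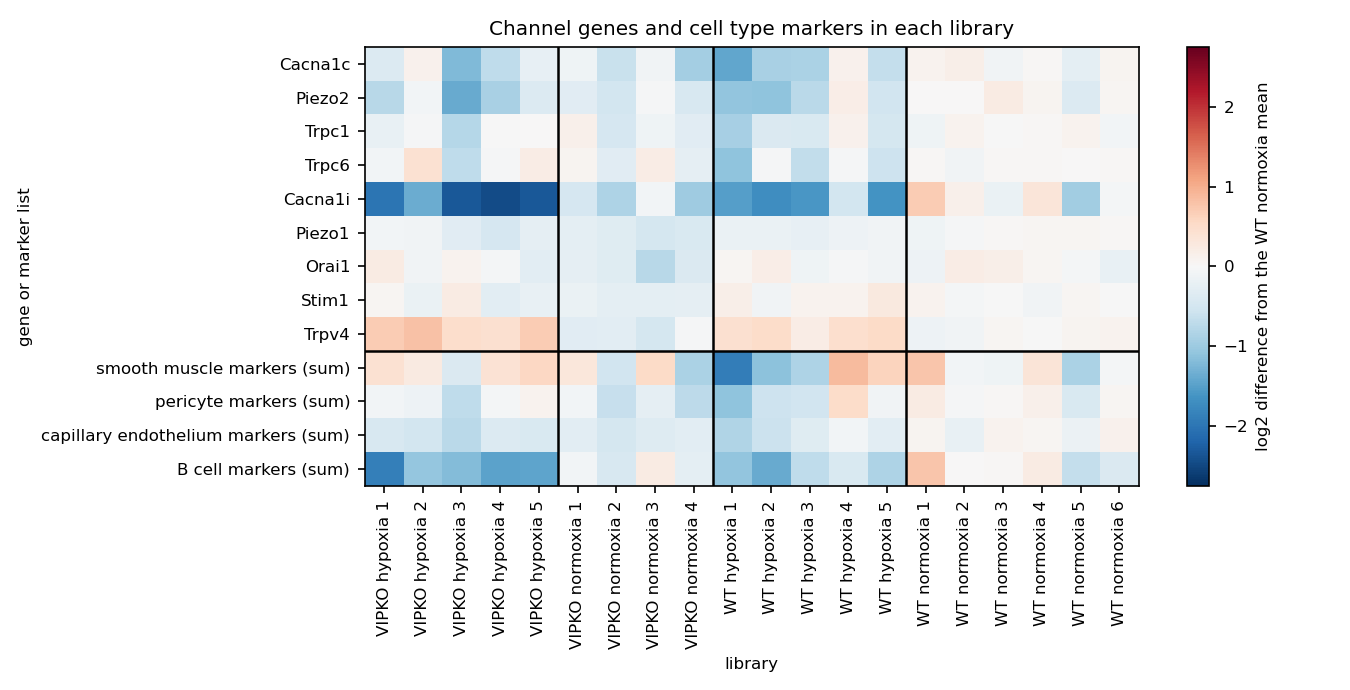
Log2 difference of each gene and of 4 marker sums from the WT normoxia mean (of log2 values), 1 column a library, red for higher and blue for lower. WT hypoxia 4 stands out from its group in Cacna1c, Piezo2, Trpc1 and Cacna1i and in the pericyte sum. Its smooth muscle sum, 18986, is the highest of the group, with WT hypoxia 5 next at 15992. Trpv4 is red in every hypoxia library.

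Among the 13 tested of 18 other mechanosensitive channels and Piezo partners, Lrrc8a, the essential subunit of the volume-regulated anion channel, fell in VIPKO normoxia, averaging 2152 ± 208 against 2933 ± 227 in WT normoxia (-0.45 ± 0.11, limma adjusted p = 0.0155). That call was lost with the correction for length and GC content, at -0.29, and without the 3 libraries at the positive end of the first component, at -0.34 (limma adjusted p = 0.138 and 0.275), and with the replicate block (limma adjusted p = 0.053). In WT hypoxia Tmem120a rose by 0.74 ± 0.18, and Lrrc8d and Lrrc8b, further subunits of the anion channel, fell by 0.37 and 0.46 on the log2 scale (limma adjusted p = 0.0139, 0.0179 and 0.0274). The Lrrc8d and Lrrc8b calls were lost in 1 and 5 of 20 fits with 1 library left out. None of the 13 passed in VIPKO hypoxia or between genotypes in hypoxia in limma, with 2 and 4 at an unadjusted p under 0.05. Of all genes, 0.997% and 1.62% passed in these comparisons, 14.7% for hypoxia in WT and 8.65% between genotypes in normoxia. Of 9 tested shear- and stretch-responsive genes, Ankrd1, a target of YAP, rose in WT hypoxia, averaging 456 ± 141 against 254 ± 38.2 in WT normoxia (0.80 ± 0.20, limma adjusted p = 0.0165, and 0.0509 with library weights), and Nos3 rose in VIPKO hypoxia, as given beside Trpv4. The 9 shear and stretch genes had median log2 changes under hypoxia of 0.52 in VIPKO and of 0.17 in WT.

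Stim1 encodes the calcium sensor of the endoplasmic reticulum and Orai1 the pore in the plasma membrane that it opens when stores empty. Orai1 signal was 515, 481, 357 and 460 in VIPKO normoxia, against 530 to 695 with a median of 606 in WT normoxia. It was 713, 566, 651, 585 and 500 in VIPKO hypoxia, against 629, 687, 563, 591 and 569 in WT hypoxia. VIPKO normoxia was the low group, with all 4 libraries below every WT normoxia library and 3 of 4 below every hypoxia library of either genotype. Orai1 was lower in VIPKO in normoxia by a log2 difference of -0.44 ± 0.12, or 1.35-fold (limma 95% interval -0.68 to -0.20, adjusted p = 0.025).

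The Orai1 call was lost without VIPKO normoxia 2, 3 or 4 or WT normoxia 3 (limma adjusted p = 0.0642, 0.103, 0.0731 and 0.0544). It was also lost with the correction for length and GC content, at -0.30, and without the 3 libraries at the positive end of the first component, at -0.32 (limma adjusted p = 0.171 and 0.31). In hypoxia the genotypes differed by -0.02 (limma 95% interval -0.25 to 0.22). Hypoxia minus normoxia was 0.41 ± 0.12 in VIPKO (limma 95% interval 0.16 to 0.66, adjusted p = 0.122) and 0.00 in WT (limma 95% interval -0.23 to 0.22), and the interaction was 0.42 ± 0.16 (limma adjusted p = 0.246). The genes most like Orai1 were Rin1, a RAS effector, Bbc3, a cell death gene of the BCL2 family, and Jund, an AP-1 subunit, with Pearson r of 0.86, 0.85 and 0.81, and 0.76, 0.76 and 0.67 within groups.

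Stim1 signal was 1739, 1619, 1625 and 1666 in VIPKO normoxia, against 1850 to 2112 with a median of 1951 in WT normoxia. It was 2044, 1725, 2279.5, 1612 and 1693 in VIPKO hypoxia, against 2205, 1841, 2113, 2107 and 2361 in WT hypoxia. The genotypes did not overlap in normoxia and did so in hypoxia. The log2 difference was -0.24 ± 0.09 in normoxia (limma 95% interval -0.43 to -0.06, adjusted p = 0.0962) and -0.19 ± 0.09 in hypoxia (limma 95% interval -0.37 to -0.01, adjusted p = 0.238), neither past the threshold. The normoxia difference passed in 4 alternative fits, at -0.24 in each: without VIPKO hypoxia 3, with the compared groups alone, with library weights, and without the libraries with thymic or muscle genes (limma adjusted p = 0.048, 0.0415, 0.0227 and 0.0447). Hypoxia minus normoxia was 0.16 in VIPKO and 0.11 in WT (limma adjusted p = 0.48 and 0.376).

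Of 10 tested store-operated entry partners, Stimate, a reticulum protein that promotes the STIM1 conformational switch, rose in WT hypoxia by 0.36 ± 0.10 (limma adjusted p = 0.0227) and was lower in VIPKO in hypoxia by -0.43 ± 0.10 (limma adjusted p = 0.0388). It averaged 795 ± 70.6 in VIPKO hypoxia and 664 ± 29.8 in VIPKO normoxia, against 1071 ± 60.3 in WT hypoxia and 845 ± 127 in WT normoxia. The call for hypoxia in WT was lost with quantile normalization, at 0.26, and without WT hypoxia 1, at 0.34 (limma adjusted p = 0.056 and 0.0546). The call between genotypes was lost without each of 10 of the 20 libraries, with a limma adjusted p up to 0.104, and under 5 alternative settings (limma adjusted p up to 0.135). No other partner passed in any comparison. Of all genes tested, 14.7% passed for hypoxia in WT and 1.62% between genotypes in hypoxia. The medians of the 10 were 0.06 for hypoxia in VIPKO, 0.22 for hypoxia in WT, -0.15 between genotypes in hypoxia and -0.16 in normoxia.

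Of 20 tested genes of calcium stores, pumps and exchangers, 3 passed in WT hypoxia and 0 in the other comparisons (in limma, with 2, 1 and 4 at an unadjusted p under 0.05 for hypoxia in VIPKO and for the genotypes in hypoxia and normoxia). The share of all genes that passed in WT hypoxia was 14.7%. The plasma membrane calcium pumps Atp2b4 and Atp2b1 fell by 0.57 and 0.27 on the log2 scale (limma adjusted p = 0.0235 and 0.0361). Smdt1, a regulator of the mitochondrial calcium uniporter, rose by 0.43 (limma adjusted p = 0.0491). The Atp2b1 call was lost under 6 alternative settings, the correction for length and GC content moving it most, to -0.14 (limma adjusted p = 0.147), and that of Smdt1 under 6, quantile normalization moving it most, to 0.33 (limma adjusted p = 0.0929). With 1 of 20 libraries left out at a time, the call was lost in 15 fits for Smdt1, 7 for Atp2b1 and 2 for Atp2b4, and the highest limma adjusted p was 0.111, 0.0763 and 0.0667.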

How the data were processed

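Per the labels' protocols, total RNA of whole lung was isolated with an RNeasy kit and made into directional libraries with a NEBNext Ultra II kit. Per the submitters' processing notes, Partek and the mm10 build were used. Aligner, counting strand and normalization were not given in the sources used here, so reads of a gene and of an overlapping antisense gene cannot be told apart. The deposited signal values are normalized gene counts, per the labels. The table has 30746 lines, of which 55 carry no gene name (0.00487% to 0.0187% of the signal) and 133 repeat a name. Of values up to 20 reads, 81.5% to 89.0% fell within 0.05 reads of a whole multiple of the smallest step in 19 libraries and 40.3% in VIPKO hypoxia 2. Depths taken from that step are therefore estimates, and no count model was run. In all 190 pairs of libraries at most 4 values over 10 were shared exactly.

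Values were taken as log2(signal + 1), which understates changes of low genes. Genes with at least 10 in at least 4 of 20 libraries were fitted with limma 3.58.1 (R 4.3.3), with 4 group means, all libraries and a variance trend, and adjusted by the Benjamini-Hochberg method at a threshold of 0.05. The steps were tested on simulated data. Summaries used Python 3.11.15 with pandas 2.3.3 and numpy 2.4.6, and plots matplotlib 3.10.9. Loci, transcript lengths and GC content come from the GENCODE annotation of GRCm38. The members and lists were chosen with earlier results of these data known. By rule, the text names all 9 members, up to 4 called genes of each list and comparison, and the 3 genes most like each called member. Markers called beside a result are named outside that rule. Some genes under that rule or on the lists are not reported here, and the counts and sums of the lists leave them out. All p-values are 2-sided, and alternatives covered the pseudocount, filter, scaling, variance model, fitted samples, replicate block, length and GC content, and libraries left out.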

Additional observations from a re-analysis of the deposited data

Results flagged for a closer look

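Among 36 groups of 4 to 6 libraries (9 genes in 4 groups), 2 had a library far from the rest of its group by Dixon's criterion, and chance gives about 1 in 20. Trpc6 was lowest in WT normoxia 2, at 820.976, while the other 5 libraries of that narrow group lay between 889 and 900.3. Cacna1i was highest in WT hypoxia 4, at 190.475, while the other 4 lay between 81.2 and 93.4. WT hypoxia 4 was also the shallowest library, and its Cacna1i rested on about 49 reads.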

How the results depend on the processing

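The 9 members kept direction and side of the threshold in 529 of 576 values under alternatives other than leaving out 1 library, and in 838 of 900 with 1 library left out. The values that turned sign belong to differences called in no fit. Depth limits Cacna1i most, and groups of 4 to 6 libraries limit all calls. The cause of each change below was not tested.

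Of members called between genotypes in normoxia (2), library weights gave 6, and the length and GC correction and the fit without the 3 libraries at the positive end of the first component gave 0 each, with 1 to 3 on leaving out 1 library. For hypoxia in WT (4), no variance trend gave 2, library weights 7, and single libraries 2 to 6. For hypoxia in VIPKO (2), the fit without the 3 libraries gave 1 and single libraries 1 to 2. Between genotypes in hypoxia (0), library weights gave 1 and single libraries 0 to 1. For the interaction (0), library weights gave 5 and single libraries 0. Cacna1c and Piezo2 in WT hypoxia missed the threshold without the variance trend (limma adjusted p = 0.0579 and 0.064), as did Piezo2 without the filter (limma adjusted p = 0.0534).

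With the number in the titles as a replicate block, 2 members passed for hypoxia in WT and 1 for hypoxia in VIPKO. Cacna1i in VIPKO then had -1.39 (limma adjusted p = 0.0736), Cacna1c and Piezo2 in WT missed the threshold (limma adjusted p = 0.0998 and 0.105), and the Cacna1i interaction was 0.02. The numbers were not shown to pair the libraries. Deviations of 27 pairs with the same number correlated at -0.289 to 0.41 (median -0.0178). Those of 122 other pairs correlated at -0.567 to 0.56 (median 0.00794). These correlations run over all genes and include the libraries that stood apart, so they cannot exclude a pairing.

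Log2 differences turned sign as follows. With library weights, hypoxia in VIPKO gave 0.13 for Trpc1 and 0.10 for Cacna1c, VIPKO minus WT in hypoxia 0.18 for Piezo2, hypoxia in WT 0.01 for Orai1, and the interaction 0.21 for Cacna1i. With the length and GC correction, hypoxia in VIPKO gave 0.04 for Trpc1 and -0.04 for Piezo1, and VIPKO minus WT in hypoxia 0.10 for Piezo1, 0.01 for Piezo2 and 0.09 for Orai1. Without the libraries with thymic or muscle genes, hypoxia in VIPKO gave 0.13 for Trpc1 and 0.15 for Cacna1c, VIPKO minus WT in hypoxia 0.16 for Piezo2, and hypoxia in WT 0.02 for Orai1. With quantile normalization and without the 3 libraries, Trpc6 for hypoxia in VIPKO was -0.04 and -0.07, and Orai1 between genotypes in hypoxia was 0.00 in both. Leaving out 1 library at a time gave, for hypoxia in VIPKO, -0.11 to 0.13 for Trpc1, -0.08 to 0.20 for Trpc6 and -0.21 to 0.15 for Cacna1c. It gave -0.05 to 0.04 for Orai1 for hypoxia in WT, -0.16 to 0.01 for Trpc6 between genotypes in normoxia, and -0.19 to 0.17 for Piezo2 and -0.08 to 0.05 for Orai1 between genotypes in hypoxia. For the interaction it gave -0.30 to 0.11 for Cacna1i and -0.03 to 0.10 for Stim1.

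Over all genes, the calls between genotypes in normoxia (1873) became 5448 with library weights, 682 with the replicate block, 232 with the length and GC correction and 0 without the 3 libraries. Calls for hypoxia in WT (3173) became 6590 with weights and 1544 with the block. Those for hypoxia in VIPKO (216) became 717, 90 and, without the 3 libraries, 45, and 134 with the compared groups alone. Those between genotypes in hypoxia (350) ranged over 9, with the compared groups alone, to 1926 with weights. Those for the interaction (61) became 2228 with weights, 12 with no variance trend, 38 with the length and GC correction, 292 without the libraries with thymic or muscle genes, and 0 with the block and without the 3 libraries.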
